A study of Mus musculus with 7 samples.

Results

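The 10 genes described here encode YAP and TAZ, the TEAD factors through which they act, and 4 transcripts that YAP, TAZ and TEAD are known to drive. They were taken as the rows of the deposited gene table with the symbols Yap1, Wwtr1, Tead1, Tead2, Tead3, Tead4, Ctgf, Cyr61, Ankrd1 and Amotl2, which are 10 of the 18468 genes listed. All 10 passed the filter on low counts, as did 12388 genes in all. For Ankrd1 only the vehicle libraries met it. RNA was sequenced from C3H10T1/2 cells, an established multipotent mesenchymal line of the mouse, able to take an osteoblastic or adipogenic course, which was bought from a cell repository and, by the labels, used up to passage 10 (the study's methods give a higher limit). The cells were left for 12 h without serum and then, still without it, received 2 μM purmorphamine, a small molecule that activates Smoothened (n = 4 libraries, numbered 5 to 8), or vehicle, which was 0.02% DMSO (n = 3 libraries, numbered 2 to 4), for 48 h. Labels do not say whether the libraries of a group came from separate cultures, so the p-values measure the spread between these libraries. The authors resampled the reads before counting, and the libraries held from 14337225 to 14342154 reads on the sense strand of genes.

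YAP (Yap1) and TAZ (Wwtr1) are coactivators without DNA-binding domains of their own. The Hippo kinases hold them in the cytoplasm by phosphorylation, whereas cell spreading and tension on the actin cytoskeleton let them enter the nucleus and bind TEAD factors. Connective tissue growth factor (Ctgf) and Cyr61 are secreted CCN proteins widely read as output of this pathway, Ankrd1 encodes an ankyrin repeat protein of muscle and stressed mesenchyme, and Amotl2 encodes an angiomotin that binds YAP and restrains it. In mesenchymal cells YAP and TAZ are known to favor the osteoblastic over the adipogenic fate, TAZ as a partner of Runx2.

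TEAD factors bind the letters GGAATG, or CATTCC where the site lies on the other strand. RefSeq promoter windows of GRCm38.p6, which run from 250 bases before a transcription start to 50 bases after it, were matched to 7 of the genes. Windows for Ctgf, Tead1 and Tead4 were not used here. The TEAD letters occurred in windows of 6 of the 7 genes (Yap1, Wwtr1, Tead3, Cyr61, Ankrd1 and Amotl2, but not Tead2). Counted by window, they occurred in 8 of the 10 windows of these genes and in 14.7% of the 32851 windows of all genes. Wwtr1 has 2 windows and Tead3 has 3, and windows of one gene can overlap. Both Wwtr1 windows hold the same site, which is thus counted for each. A share by gene was not computed for all genes. The sites of 5 of the 7 genes are shown because they stand before RefSeq starts of genes that moved in opposite directions, or not at all, in the comparison below. Each is printed 5′ to 3′ on the strand of its gene with 12 bases on either side, and the capitals mark the TEAD letters.
Cyr61: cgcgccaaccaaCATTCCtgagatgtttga
Ankrd1, upstream site: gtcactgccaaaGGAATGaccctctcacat
Ankrd1, downstream site: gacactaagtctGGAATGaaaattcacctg
Amotl2: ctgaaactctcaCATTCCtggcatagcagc
Wwtr1: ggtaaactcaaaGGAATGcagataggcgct
Yap1: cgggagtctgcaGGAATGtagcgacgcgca
The Cyr61 site is at chr3:145650071-145650100 on the minus strand, 103 bases before the start. Those of Ankrd1 are at chr19:36120037-36120066 and chr19:36119950-36119979 on the minus strand, 210 and 123 bases before the start. That of Amotl2 is at chr9:102717727-102717756 on the plus strand, 65 bases before the start. The Ankrd1 and Amotl2 sites lie within the spans that GENCODE M21 gives these genes, and their letters within exons listed there. The sites of Wwtr1 (chr3:57576029-57576058) and Yap1 (chr9:8004720-8004749), both on the minus strand, are 136 and 141 bases before the start.

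The stretch before the Cyr61 start is given whole, since Cyr61 had the smallest adjusted p of the 10 genes. It spans chr3:145649986-145650235 on the minus strand of GRCm38.p6, with the TEAD letters in capitals.
Cyr61: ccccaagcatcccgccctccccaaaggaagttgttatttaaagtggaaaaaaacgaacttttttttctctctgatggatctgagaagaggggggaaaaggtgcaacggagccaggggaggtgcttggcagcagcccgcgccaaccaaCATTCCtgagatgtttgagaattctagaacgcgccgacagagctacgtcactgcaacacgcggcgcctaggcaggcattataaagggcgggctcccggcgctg
The core of the Gli motif, CCACCCA or TGGGTGG on the other strand, was found in 2 of the 10 windows, both of Tead3, and in 9.3% of all windows. The CArG box, to which serum response factor (SRF) binds, was found in 0 of the 10 and in 1.63% of all windows. These matches describe letters in the windows and do not show that a factor was bound.

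**Figure D1:**
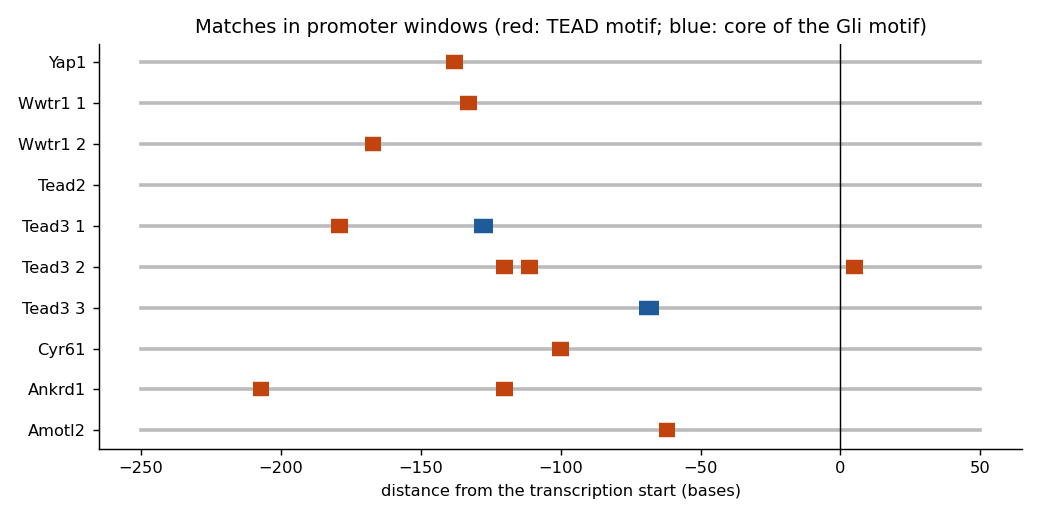
Positions of the TEAD letters (red) and of the core of the Gli motif (blue) in the 10 promoter windows of 7 genes, by distance in bases from the transcription start, with numbered windows where a gene has several. The TEAD letters lie between 65 and 210 bases before the start in the windows of Yap1, Wwtr1, Cyr61, Ankrd1 and Amotl2.

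Of the 10 genes, 4 rose with purmorphamine and 5 fell at an adjusted p under 0.2, the study's threshold, by the quasi-likelihood test of edgeR, adjusted by Benjamini-Hochberg over all 12388 genes. That share has to be read against a response in which 62.5% of all genes tested were called, 31.4% as increased and 31.1% as decreased. The counts of the groups did not overlap for those same 9 genes (4 upward and 5 downward), nor for 49.5% of all genes tested (29.1% upward and 20.4% downward). Past 1.5-fold, a mark that 15.4% of all genes passed, there were 3 members: Ctgf rose, and Cyr61 and Ankrd1 fell. Of the 4 targets, then, 1 rose and 3 fell. Ankrd1 could be counted here only because its vehicle libraries met the filter on low counts. These are levels in RNA from whole cultures, in which fewer cells expressing a gene and less RNA per cell cannot be told apart.

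**Figure D2:**
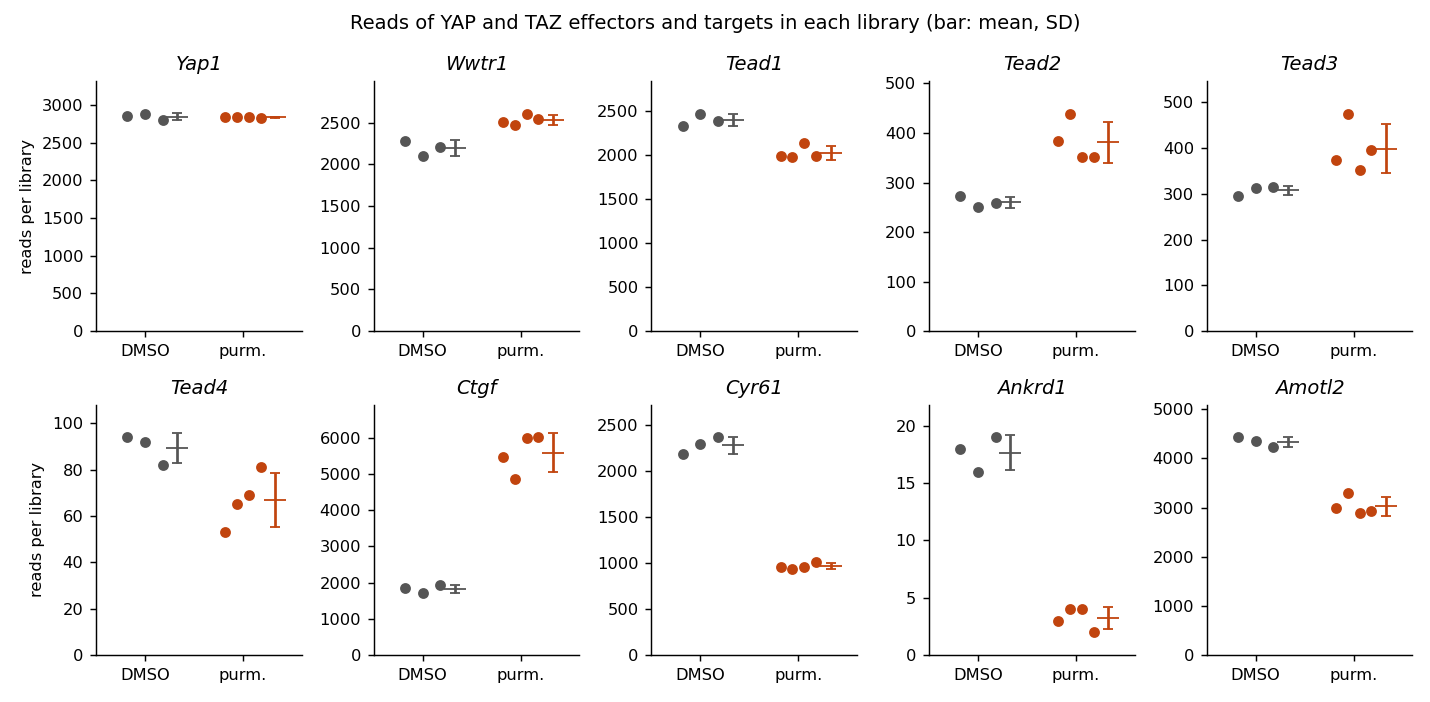
Reads per library for each of the 10 genes, with DMSO libraries in grey, purmorphamine libraries in red, and the mean and SD of each group beside the points. For Ctgf the purmorphamine libraries (4880 to 6020 reads) lie above all DMSO libraries (1718 to 1933), while for Cyr61, Ankrd1 and Amotl2 they lie below, and for Yap1 the groups overlap.

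Yap1 itself (chromosome 9 from 7931999 to 8004596 in GRCm38, minus strand) was not called. Its reads were 2854, 2882 and 2797 with vehicle and 2833, 2841, 2842 and 2820 with purmorphamine (means 2844 ± 43.3, SD, n = 3, and 2834 ± 10.2, SD, n = 4). The 4 purmorphamine values fell inside the range of the vehicle values. The log2 fold change was -0.05 with a standard error (SE) of 0.042 (adjusted p = 0.327 by edgeR). Scaling by edgeR's TMM factors, which were slightly higher for every purmorphamine library, moved the groups apart (exact two-sided permutation test, all 35 ways of drawing the groups, p = 0.0286, the smallest that 3 libraries against 4 allow). With library totals alone the log2 fold change was -0.0049.

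Wwtr1, which encodes TAZ (chromosome 3 from 57455649 to 57575910, minus strand), rose by a small amount. The vehicle libraries held 2283, 2099 and 2204 reads and the treated libraries 2505, 2473, 2606 and 2547. No vehicle library reached the lowest treated one. The log2 fold change was 0.16 (SE of 0.047, adjusted p = 0.0109 by edgeR), or 1.12-fold. The ratio of Wwtr1 to Yap1 reads in a library does not depend on how the libraries are scaled. It went from 0.772 on average with vehicle to 0.894 with purmorphamine, a difference of 0.21 on the log2 scale (exact permutation test, two-sided, p = 0.0286, and 0.0357 after Benjamini-Hochberg adjustment over the 5 ratios compared here).

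The TEAD genes encode the DNA-binding partners, and their transcripts moved in opposite directions. Tead1 (112679318 to 112906807) and Tead2 (45215753 to 45233644) lie on the plus strand of chromosome 7, and Tead3 (28331671 to 28350817 on chromosome 17) and Tead4 (128224288 to 128300823 on chromosome 6) on minus strands. The Tead1 gene overlaps the gene model Gm44462 on the same strand, so reads in the overlap could be counted for either. Tead1 fell from 2328, 2468 and 2384 reads to 1991, 1982, 2140 and 1985. The groups did not overlap, and replicate 7 was the highest of the purmorphamine libraries. Its log2 fold change was -0.29 (SE of 0.047, adjusted p = 8.69e-05 by edgeR).
Tead4 fell from 94, 92 and 82 reads to 53, 65, 69 and 81, a log2 fold change of -0.46 (SE of 0.15, adjusted p = 0.0158 by edgeR). Its groups were 1 read apart, and the permutation test on scaled reads gave p = 0.0571 (exact, two-sided).
Tead2 rose from 272, 250 and 258 reads to 383, 439, 352 and 351. No library of one group reached the other, and the log2 fold change was 0.50 (SE of 0.088, adjusted p = 0.000151 by edgeR), or 1.42-fold. Tead3 rose from 296, 312 and 315 reads to 373, 475, 352 and 395, with replicate 6 the highest. Its log2 fold change was 0.33 (SE of 0.092, adjusted p = 0.00773 by edgeR), and 0.24 without purmorphamine replicate 6. The permutation test gave p = 0.0571 (exact, two-sided). Replicate 6 also held the highest Tead2 count. Within the purmorphamine group the SD was 10.8% of the mean for Tead2, 13.5% for Tead3 and 17.2% for Tead4. It was 3.81% for Tead1 and 0.359% for Yap1. These percentages depend on depth, since counting error weighs more at fewer reads. Counting error alone gives an SD of 19.53 reads for Tead2 and 19.97 for Tead3, where 41.27 and 53.78 were found. For Tead4 it gives 8.19 against 11.55 found, and for Tead1 44.99 against 77.09. The SD found for Yap1, 10.2 reads, lay below the 53.2 that counting error gives.
A difference between the changes of Tead1 and Tead4 was not called. The log2 ratio of Tead4 to Tead1 reads differed by -0.18 between treatments, where its SD was 0.11 among vehicle and 0.25 among purmorphamine libraries (exact permutation test, two-sided, p = 0.314, also after adjustment over the 5 ratios). With single libraries left out the difference ran from -0.29 to -0.084 (without purmorphamine replicate 5). Without purmorphamine replicate 8, at -0.29, it came under the threshold of 0.2 (exact permutation test, adjusted p = 0.1). That value is the smallest that the libraries left allow, and all 5 ratios had it.

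The shares of the TEAD transcripts shifted, and their sum overlapped between the groups. Reads per kilobase of exon, summed over Tead1 to Tead4, were 301 ± 4.17 with vehicle (SD, n = 3) and 307 ± 13.4 with purmorphamine (SD, n = 4). Within that sum Tead1 held 57.5%, 59.4% and 58.7% with vehicle against 49.4%, 44.7%, 52.1% and 48.6% after purmorphamine. Tead2 held 17.1% to 19.0% with vehicle and 24.3% to 28.1% after purmorphamine. Tead3 held 14.8% to 15.7% and 17.3% to 21.7%, and Tead4 held 7.62% to 8.75% and 4.96% to 7.48%. None of these 4 shares overlapped between the groups, though for Tead4 the gap was only from 7.48% to 7.62%. The shares of a library add up to the whole, so the 4 are not separate results. Tead1 remained the most abundant of the 4 by length in every library. The sizes of these shares depend on the gene lengths used. With the longest transcript in place of all exons, Tead1 held 55.2% with vehicle and 45.0% with purmorphamine, and with no length correction 78.5% and 70.5%.

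**Figure D3:**
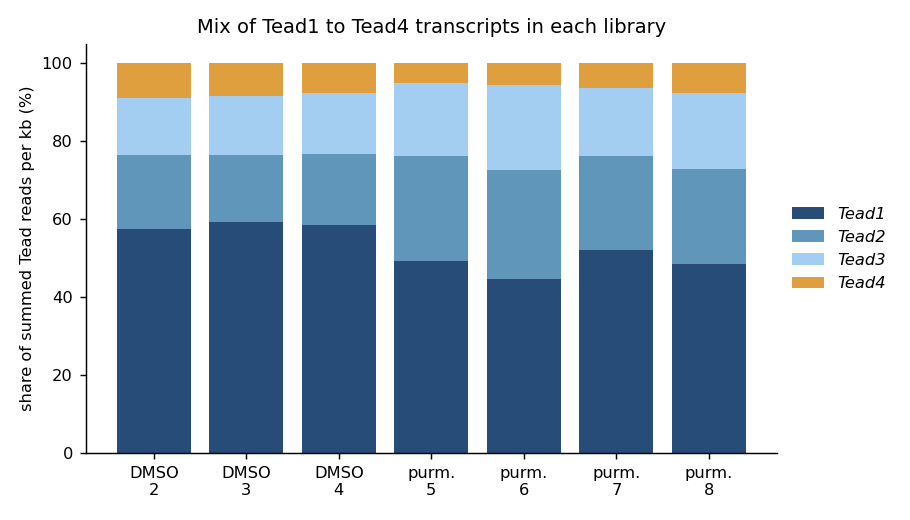
Share of Tead1, Tead2, Tead3 and Tead4 in their summed reads per kilobase of exon, in percent, for each DMSO and purmorphamine library. The Tead1 segment takes 57.5% to 59.4% in the DMSO libraries and 44.7% to 52.1% in the purmorphamine libraries.

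Ctgf (chromosome 10 from 24595442 to 24598683 in GRCm38, plus strand), which encodes a secreted matrix protein induced by YAP, TAZ and TGF-β, rose most. Its reads were 1848, 1718 and 1933 with vehicle and 5480, 4880, 5999 and 6020 with purmorphamine. All treated libraries lay far above all vehicle libraries. The means were 1833 ± 108 (SD, n = 3) and 5595 ± 538 (SD, n = 4), and the log2 fold change was 1.56 (SE of 0.072, adjusted p = 1.4e-11 by edgeR), or 2.95-fold. Of all genes tested, 98.5% had a lower log2 fold change.

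Cyr61 (chromosome 3 from 145646976 to 145649981, minus strand), the nearest CCN relative of Ctgf among the 10 genes and like it a ligand of integrins, moved the other way. Its reads numbered 2182, 2288 and 2364 with vehicle but 960, 937, 956 and 1009 after purmorphamine. The purmorphamine libraries lay close together and all below the vehicle libraries. The log2 fold change was -1.29 (SE of 0.048, adjusted p = 1.22e-12 by edgeR), which is 2.44-fold lower.
Cyr61 reads exceeded Ctgf reads in each vehicle library, by 1.18, 1.33 and 1.22 to 1, and were below them in each purmorphamine library, at 0.175, 0.192, 0.159 and 0.168 to 1. The log2 ratio differed by -2.84 between treatments (exact permutation test, two-sided, p = 0.0286, adjusted 0.0357), a 7.18-fold change in the ratio.

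Ankrd1 (chromosome 19 from 36111961 to 36120099, minus strand), a transcript prominent in heart and in injured muscle, was scarce in these cells. Only 18, 16 and 19 reads were counted with vehicle, against 3, 4, 4 and 2 after purmorphamine. The groups did not overlap, at counts where few reads decide the value. The log2 fold change was -2.44 (SE of 0.35, adjusted p = 1.81e-05 by edgeR). Only the vehicle libraries carried Ankrd1 through the filter on low counts, so this fall is not independent of that filter. Counted as sums, 53 reads in 3 libraries against 13 in 4 give a ratio per library of 0.184, with an exact 95% interval from 0.092 to 0.342 that covers counting error alone.
Amotl2 (chromosome 9 from 102716672 to 102733418, plus strand), a target that feeds back on YAP, fell from 4430, 4365 and 4226 reads to 2982, 3304, 2889 and 2927. The highest purmorphamine library, replicate 6, was still well below the lowest vehicle library. The log2 fold change was -0.57 (SE of 0.05, adjusted p = 5.87e-08 by edgeR), or 1.48-fold lower.
Against Ctgf, the log2 ratio of Ankrd1 fell by 3.77 and that of Amotl2 fell by 2.13 (exact permutation tests, two-sided, p = 0.0286 each, adjusted 0.0357). Ctgf itself rose by 1.56, so these ratios combine its rise with the falls given above and are not separate results. The Ankrd1 ratio, like the Ankrd1 fall, is not independent of the filter. With 0.5 added to the reads in place of 1, its difference was -3.92.

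**Figure D4:**
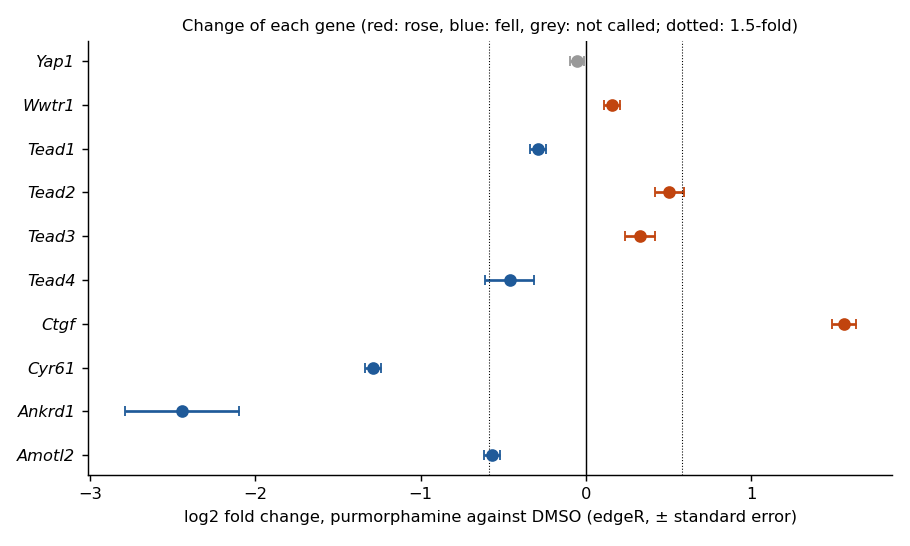
Log2 fold change from edgeR, purmorphamine against DMSO, with its standard error, for each of the 10 genes; dotted lines mark 1.5-fold and colors mark genes that rose, fell or were not called. Ctgf stands alone on the right at 1.56, with Cyr61 at -1.29 and Ankrd1 at -2.44 on the left and the coactivators and TEAD genes between -0.46 and 0.50.

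Levels of the genes relative to each other were compared per kilobase of exon. With vehicle the order was Cyr61 (1128 ± 45.3 reads per kilobase, SD, n = 3), Amotl2 (690.1 ± 16.6), Ctgf (641 ± 37.8), Wwtr1 (459 ± 19.3), Yap1 (307 ± 4.68), Tead1 (176 ± 5.19), Tead2 (54.3 ± 2.33), Tead3 (45.8 ± 1.52), Tead4 (24.8 ± 1.79) and Ankrd1 (6.12 ± 0.529). Amotl2 and Ctgf overlapped between libraries, and the other neighbours in this order did not. With purmorphamine Ctgf came first at 1956 ± 188 reads per kilobase (SD, n = 4), above 98.2% of the 12103 genes ranked. Wwtr1 (530.0 ± 12.0), Amotl2 (481 ± 30.1) and Cyr61 (478 ± 15.2) followed. In that group Wwtr1 overlapped with Amotl2, and Amotl2 with Cyr61. Some places changed with the length used. By the longest transcript Tead3 stood above Tead2 in both groups, Yap1 stood above Wwtr1 with vehicle, and Amotl2, Wwtr1, Yap1 and Cyr61 followed Ctgf in that order with purmorphamine.

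The genes whose profile over the 7 libraries was nearest to that of each target were found by the root mean square difference in log2 reads at a common library size, each gene centred on its own mean, among 10664 genes with at least 50 reads on average. For Ctgf these were Mr1, which encodes an antigen-presenting molecule, and Golm1, which encodes a Golgi membrane protein, at 0.042 and 0.081, where the median gene was at 0.79. For Cyr61 they were Hk2, a hexokinase, and Itga8, an integrin chain, at 0.05 and 0.063 (median 0.64). For Ankrd1 Slc5a7, which encodes a choline transporter, was at 0.18 (median 1.12). For Amotl2 they were Fhl3, a LIM domain protein, and Zswim6, at 0.033 and 0.035 (median 0.31). Among the targets themselves Cyr61 and Amotl2 were nearest, at 0.37, and Ctgf and Ankrd1 farthest, at 1.88. These distances are descriptions that rest largely on the difference between the treatments.

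Other genes of a 22-gene target signature drawn from human tumors, of which Ctgf, Cyr61, Ankrd1 and Amotl2 are 4, moved in both directions. Of the 18 others, 17 passed the filter and all 17 were called, 9 as increased and 8 as decreased. Over all genes tested 62.5% were called, 31.4% as increased and 31.1% as decreased. The median log2 fold change was 0.17 beside 0.0038 over all genes tested. Not all 17 calls held in other fits. The decreased genes numbered 6 with library totals alone or at an adjusted p under 0.05, and 7 with DESeq2. Igfbp3, which encodes a binding protein for insulin-like growth factors, rose from 12, 13 and 15 reads to 301, 397, 327 and 298. This was the largest change on the list, with a log2 fold change of 4.57 (SE of 0.18, adjusted p = 1.51e-12 by edgeR). Rbms3 and Asap1, which encode an RNA-binding protein and a regulator of Arf GTPases, rose by log2 fold changes of 0.77 and 0.71. Dock5, an activator of Rac, and Foxf2, a forkhead factor of mesenchyme that Hedgehog signaling is also known to induce, rose by 0.69 and 0.67. F3, which encodes tissue factor, fell from 2410, 2324 and 2460 reads to 1268, 1286, 1372 and 1410 (log2 fold change of -0.89). Crim1, which encodes a transmembrane protein that binds BMPs, fell by 0.58 on the log2 scale. Past 1.5-fold there were 5 increased genes and 1 decreased gene, where 7.89% and 7.56% of all genes tested passed that mark.

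Of the other CCN genes, 3 were tested and 2 fell, where 31.1% of all genes tested fell and 62.5% were called in either direction. Wisp1 went from 1081, 1089 and 1001 reads to 417, 387, 382 and 428, a log2 fold change of -1.44 (SE of 0.06, adjusted p = 4.23e-12 by edgeR). Nov, chosen for mention after its values were seen, fell from 23571 ± 427 to 17052 ± 657 reads (SD over 3 and 4 libraries). Wisp2, also named after its values were seen, had 3342 ± 128 and 3491 ± 297 reads and was not called (adjusted p = 0.853 by edgeR). Of the 6 CCN genes, Wisp3 had no row in the table used. Ankrd23, also named after its values were seen and the 1 of 2 muscle ankyrin repeat relatives of Ankrd1 that could be tested, had 39, 25 and 28 reads against 44, 46, 46 and 32 (log2 fold change of 0.41, adjusted p = 0.122 by edgeR). Its call was lost without DMSO replicate 3 or 4.

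SRF and its actin-sensing cofactors, the MRTFs, drive cytoskeletal genes and share several targets with YAP and TAZ. Of 15 such genes 12 fell, 2 rose and 1 was not called, beside 31.1% decreased and 31.4% increased over all genes tested. The median log2 fold change was -0.51. Cnn1, a calponin of smooth muscle, fell from 47, 55 and 37 reads to 9, 6, 12 and 15, a log2 fold change of -2.17 (SE of 0.26, adjusted p = 2.71e-06 by edgeR). Its purmorphamine libraries alone would not have met the filter on low counts. Tagln, which encodes the actin-binding protein transgelin, went from 441, 412 and 430 reads to 149, 181, 147 and 173, with a log2 fold change of -1.44. Acta2, smooth muscle actin, and Myl9, a myosin light chain, fell by 0.90 and 0.64 on the log2 scale. These were the 4 that changed by at least 1.5-fold, all downward, a mark passed downward by 7.56% of all genes. The 2 that rose, Tpm1 and Tgfb1i1, did so by log2 fold changes of 0.08 and 0.14 (named after their values were seen), and leaving out single libraries left from 0 (without DMSO replicate 2) to 2 of them called, with 1 left in the fits without DMSO replicate 3 or 4 or purmorphamine replicate 5, 6 or 8.

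**Figure D5:**
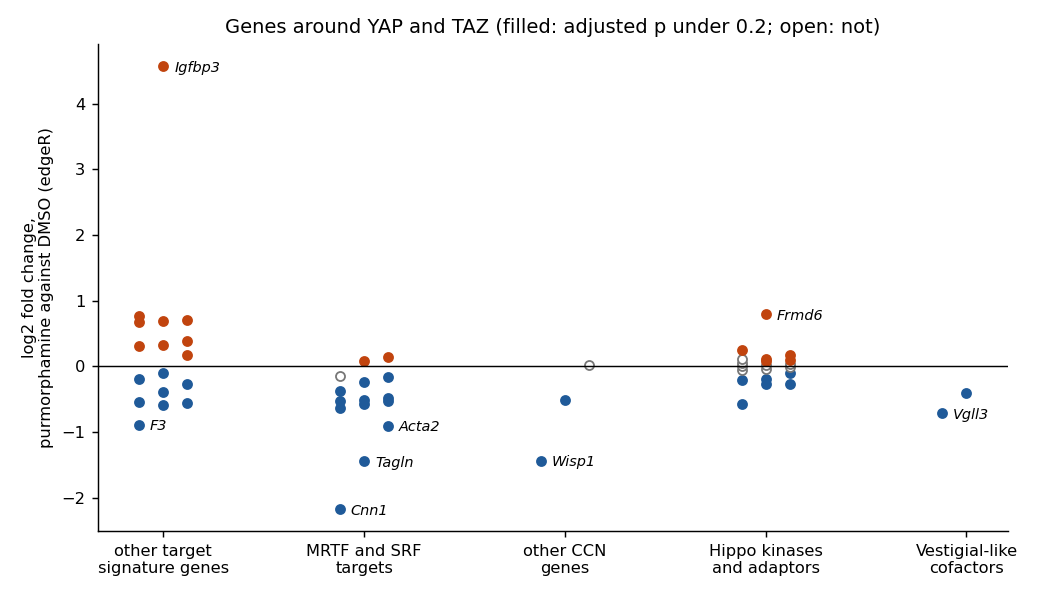
Log2 fold change from edgeR of each tested gene of 5 lists around YAP and TAZ, 1 point per gene, filled where the adjusted p was under 0.2 and red or blue for higher or lower with purmorphamine. The target signature genes spread to both sides with Igfbp3 at 4.57, whereas 12 of the 15 MRTF and SRF targets are filled and below 0.

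Among the kinases, scaffolds and junctional proteins that control YAP and TAZ, 20 genes were tested. Of these 6 rose, 6 fell and 8 were not called, with a median log2 fold change of 0.013, and 1 passed 1.5-fold. Over all genes tested 62.5% were called and 15.4% passed 1.5-fold. That gene was Frmd6, which encodes a FERM domain protein that promotes Hippo kinase activity, with 1298, 1345 and 1299 reads against 2333, 2405, 2364 and 2322 (log2 fold change of 0.80, SE of 0.044, adjusted p = 1.81e-10 by edgeR). Map4k4, a kinase that acts on LATS in parallel to the MST kinases and was singled out after its values were seen, fell from 5017 ± 48.0 to 3489 ± 110.4 reads (SD over 3 and 4 libraries), by 0.57 on the log2 scale. At an adjusted p under 0.05 the list had 3 increased genes in place of 6. Over all 12388 genes tested, that threshold left 2879 increased genes in place of 3887. Lats2 and Ptpn14 stand on this list and also in the target signature.
Both Vestigial-like cofactors with a row in the table fell, as did 31.1% of all genes tested. These proteins compete with YAP and TAZ for TEAD factors. Vgll3 went from 3478, 3408 and 3359 reads to 2083, 2071, 2187 and 2260 (log2 fold change of -0.71, adjusted p = 1.22e-09 by edgeR). Vgll4, named after its values were seen, fell from 775 ± 22.8 to 607 ± 43.0 reads. Vgll1 and Vgll2 had no row in the table used.

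The transcripts of Gli1, Ptch1 and Hhip, which Hedgehog signaling induces, checked the labels. Each was higher in every purmorphamine library than in any vehicle library, with Ptch1 at 504 to 532 reads against 10296 to 11451. Gli1 had 7 to 12 reads against 2522 to 3171, and Hhip 0 to 1 against 139 to 197. Gli1 and Hhip met the filter on low counts only through their purmorphamine libraries. Over all genes tested, 29.1% were likewise without overlap upward. The mesenchymal identity given by the labels was checked with 7 markers, which were all detected. Of these 2 rose, 2 fell and 3 (Col1a1, Pdgfrb and Fn1) were not called, and all are named here after their values were seen. Over all genes tested 31.4% rose and 31.1% fell. Pdgfra, a PDGF receptor, rose from a mean of 10813 to 18903 reads, and Thy1, a surface glycoprotein, from 1102 to 1906 (log2 fold changes of 0.76 and 0.74). Vim, vimentin, fell from 80155 to 42480 reads and Col1a2, a collagen chain, from 73327 to 64660 (log2 fold changes of -0.96 and -0.23). Of 12 markers of other cell types, Epcam, Myod1, Myog and Sox10 had no row in the table used, and 5 others (Krt8, Pecam1, Kdr, Ptprc and Des) had at most 6 reads in any library. Cd68 had 10 to 18 reads. The summed reads of these markers were 31 to 48 with vehicle and 166 to 176 with purmorphamine. The cadherins Cdh1 (14 to 21 against 110 to 135 reads) and Cdh5 (0 against 21 to 26) were both called as increased, as were 31.4% of all genes tested. Cdh5 met the filter on low counts only through its purmorphamine libraries. The part of these cadherins in the results above was not tested.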

How the data were processed

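Libraries were made from ribosome-depleted total RNA with a stranded kit. Per the labels and the study's methods, the authors aligned reads with STAR 2.5.3a to mm9 (submitters' processing notes), resampled them to equal numbers and deposited whole-number sense-strand counts per gene. The annotation is not given in the sources used here. Resampling discards depth and hides differences in library yield. No per-sample column was left unused (0), and no labelled batch was given. Libraries of one group differed by more than sampling noise (mean chi-square per gene from 2.12 to 8.36, against 45.9 to 59.1 between groups), so none was a copy.

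Counts were fitted with edgeR 4.0.16 (R 4.3.3): TMM factors (0.978 to 1.02), the default filter (minimum count 10, total 15), quasi-likelihood test, calls at adjusted p under 0.2. Standard errors came from the fold change and its F statistic. Permutation tests used log2 of TMM-scaled reads plus 1, and ratios used log2 of reads plus 1. On simulated counts (12284 genes tested) 90.8% of 1.5-fold and 95.9% of 2-fold changes were recovered, with 16.9% of calls false. Only 98 and 97 of those genes were given such changes, whereas 62.5% of genes were called in the data. These rates therefore do not carry over to the comparison made here. The fit was repeated with other scalings, filters and thresholds, with DESeq2 1.42.0, with limma-voom (limma 3.58.1, the authors' test) and with each library left out.

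The 10 genes and all lists were chosen with earlier results of these data known. Named genes were those 10, genes of the pathway, cofactor, signature, CCN, ankyrin repeat and SRF lists called with a log2 fold change of at least 0.58 in size (at most 6 per list and direction), Gli1, Ptch1 and Hhip, the 2 nearest profiles of each target (1 of them is not reported here), and markers of other cells above 10 reads. Positions and exon lengths were looked up in GENCODE M21 (GRCm38), where the identifiers of 17632 genes were found. The mm9 coordinates in the table were left aside. Protein comparisons planned for these genes were not made.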

Additional observations from a re-analysis of the deposited data

Results flagged for a closer look

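Among 24 genes examined (the 10 genes and the list genes named by rule), 1 had a purmorphamine library far from the others, where chance gives about 1.2. For Tead1, replicate 7 was the highest of the 4 purmorphamine libraries, and after TMM scaling its gap to the next library made up 0.901 of the range. The counts as deposited were 1991, 1982, 2140 and 1985. Without replicate 7 the log2 fold change of Tead1 was -0.31 in place of -0.29. The vehicle group, with 3 libraries, was not examined in this way.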

How the results depend on the processing

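No paired analysis was possible because DMSO and purmorphamine libraries carry different replicate numbers. The direction of all 10 genes held in every alternative that gave a value, and their calls held in all but the fold threshold. With at least 10 counts in every library Ankrd1 could not be tested. Library totals in place of TMM factors moved the median log2 fold change of all genes by 0.048.

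A 1.5-fold threshold, by its construction, left 977 increased and 936 decreased genes, and was not reached by Wwtr1 (0.16), Tead1 (-0.29), Tead2 (0.50), Tead3 (0.33), Tead4 (-0.46) or Amotl2 (-0.57). It left 1 increased and 0 decreased Hippo genes, 1 Vestigial-like gene, 5 increased and 1 decreased signature genes, 1 other CCN gene, 0 ankyrin relatives and 0 increased and 4 decreased MRTF and SRF targets. At an adjusted p under 0.05 there were 3 increased Hippo genes, 0 ankyrin relatives and 0 increased MRTF and SRF targets. Of all 12388 genes tested, 2879 were increased and 2926 decreased at that threshold, in place of 3887 and 3854. With DESeq2 there were 0 ankyrin relatives and 1 increased MRTF and SRF target. With single libraries left out, ankyrin relatives ran from 0 (without DMSO replicate 3 or 4) to 1, and increased MRTF and SRF targets from 0 (without DMSO replicate 2) to 2. For these lists the cause was not tested.

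The log2 ratio of Tead4 to Tead1 ran from -0.29 to -0.084 with single libraries left out. Without purmorphamine replicate 8 it came under the threshold of 0.2 (exact permutation test, adjusted p = 0.1), at the smallest value that the libraries left allow. With the longest transcript, places in the order of levels became 4 for Yap1 and 5 for Wwtr1 with vehicle, 2 for Amotl2, 3 for Wwtr1, 4 for Yap1 and 5 for Cyr61 with purmorphamine, and 8 for Tead2 and 7 for Tead3 in both. Cyr61 and Amotl2 ran from place 3 to 4 with single purmorphamine libraries left out, exchanging places without replicate 6. Shares of the TEAD sum by longest transcript were 55.2%, 20.5% and 6.67% for Tead1, Tead3 and Tead4 with vehicle and 45.0%, 25.5% and 4.82% with purmorphamine. With no length they were 78.5%, 8.53%, 10.1% and 2.93% for Tead1 to Tead4 with vehicle and 70.5%, 13.3%, 13.9% and 2.33% with purmorphamine. Depth limits Ankrd1, with at most 4 reads in a purmorphamine library.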
